A study of Rhodotorula toruloides with 36 samples.

Results

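The genes described here lie near the ends of the assembled scaffolds of *Rhodotorula toruloides* strain IFO0880, an oil-storing basidiomycete yeast. They were chosen by position alone: on every scaffold with at least 100 mRNA features in the deposited gene catalogue, a gene was taken when it lay wholly within 30 kb of the lowest start or the highest end of any mRNA of that scaffold. This gave 440 of the 8490 genes of the catalogue (5.18%), at the 36 ends of 18 scaffolds. The other 8042 genes of the same scaffolds are called interior genes, and the remaining 8 genes lie on 3 small scaffolds and were left out. The rule uses position and no measured value. The catalogue gives no scaffold lengths, and an end therefore means the outermost annotated base. The lowest start lay between base 1 and base 1571, and within 100 bases of base 1 on 8 scaffolds. Whether these ends are chromosome ends is not given in the sources used here.

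RNA was sequenced from 36 libraries in 12 groups of 3, which crossed low or high ammonium sulfate, acetate at 0 or 2 g/L, and sampling at 48, 64 or 88 h. Low-nitrogen medium contained ammonium sulfate at 0.1 g/L and, according to the series' design, yeast extract at 0.75 g/L. For high-nitrogen medium the ammonium sulfate is 5 g/L according to the protocol but 10 g/L according to the design, a discrepancy not settled here. All groups shared the strain IFO0880 and a preculture from 3 colonies in glucose medium with 5 g/L ammonium sulfate, and each washed pellet was divided among 4 flasks. The labels call the 3 libraries of a group biological replicates, but do not say that a replicate number marks a colony, nor whether flasks were sampled repeatedly. The carbon source of the sampled cultures is not given there, although the title of the study concerns the use of xylose with acetate.

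As background, the regions next to telomeres differ from the rest of the genome in many fungi. In *Saccharomyces cerevisiae* a silencing complex, the Sir proteins, spreads inward from telomeres and keeps nearby genes low, and in many filamentous fungi and yeasts such regions hold fast-changing gene families and genes used only under particular conditions. *R. toruloides* stores lipid when nitrogen runs out, and acetate enters its metabolism as acetyl-CoA, the building block of fatty acids. The files identify genes only by catalogue number, and no table used here pairs those numbers with names or products, so genes appear by number and no function is given to any of them.

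Total counts ran from 10173719 to 63311529 per library, with a median of 24769372. Of the 440 end genes, 425 passed the filter on low counts and entered the tests, as did 8314 of all 8490 genes. The 15 end genes that did not pass held between 4 and 207 counts over all 36 libraries together, with a median of 71. A count of 3 in a library, taken as the floor, stood for 0.0497 to 0.410 CPM (counts scaled to a common library total). In 4 libraries the counts differed from both other replicates of their group more than 3 times as much as those replicates differed from each other: high nitrogen with acetate at 48 h replicate 3, high nitrogen without acetate at 64 h replicate 2 and at 88 h replicate 2, and low nitrogen without acetate at 64 h replicate 1. Counts of end genes called without these 4 libraries stand beside the comparisons they moved in direction, and for the rest among the limits at the close.

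End genes had median levels close to those of interior genes. Their share of nearly silent genes, taken here as genes under 1 RPKM, was larger, in part through a block of genes at 1 end. Levels are RPKM, CPM per kb of exon, averaged over the 36 libraries. The median end gene stood at 31.4 RPKM (quartiles 14.0 and 64.1) and the median interior gene at 30.1 RPKM (quartiles 13.0 and 66.8). On the log2(RPKM + 0.1) scale the difference between these medians was 0.06, with an SD of 0.07 over the 36 libraries, and end genes had the higher median in 32 of them. The difference in a single library ran from −0.04 to 0.25. By group it was lowest, at −0.02 ± 0.01 (SD, n = 3), for low nitrogen at 88 h without acetate, and highest, at 0.21 ± 0.04 (SD, n = 3), for high nitrogen at 88 h with acetate. Genes under 1 RPKM made up 34 of 440 end genes (7.73%) and 395 of 8042 interior genes (4.91%). Without a block of 8 such genes at 1 end, described below, the end share was 6.02%. The nearest interior genes had similar shares, 6.15% at 30 to 60 kb and 5.93% at 60 to 100 kb from an end. At the upper side, 17.7% of end genes and 16.5% of interior genes reached 100 RPKM. Genes are not replicates of a condition and share ends, so these shares are descriptions and carry no test.

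Gene structure differed little between the 2 sets. Both had a median of 5 exons. The median coding length was 1125 bases at the ends and 1224 in the interior. Single-exon genes were 6.14% of end genes and 4.96% of interior genes, and coding lengths under 300 bases were 2.50% and 2.84%. The median gap to the next gene was 170 bases at the ends and 136.5 in the interior. Exons overlapped those of another gene on the opposite strand in 10.7% of end genes and 14.5% of interior genes, and on the same strand in 9.32% and 11.2%. Whether counting used the strand is not given in the sources used here, so reads from overlapping genes cannot be told apart.

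**Figure D1:**
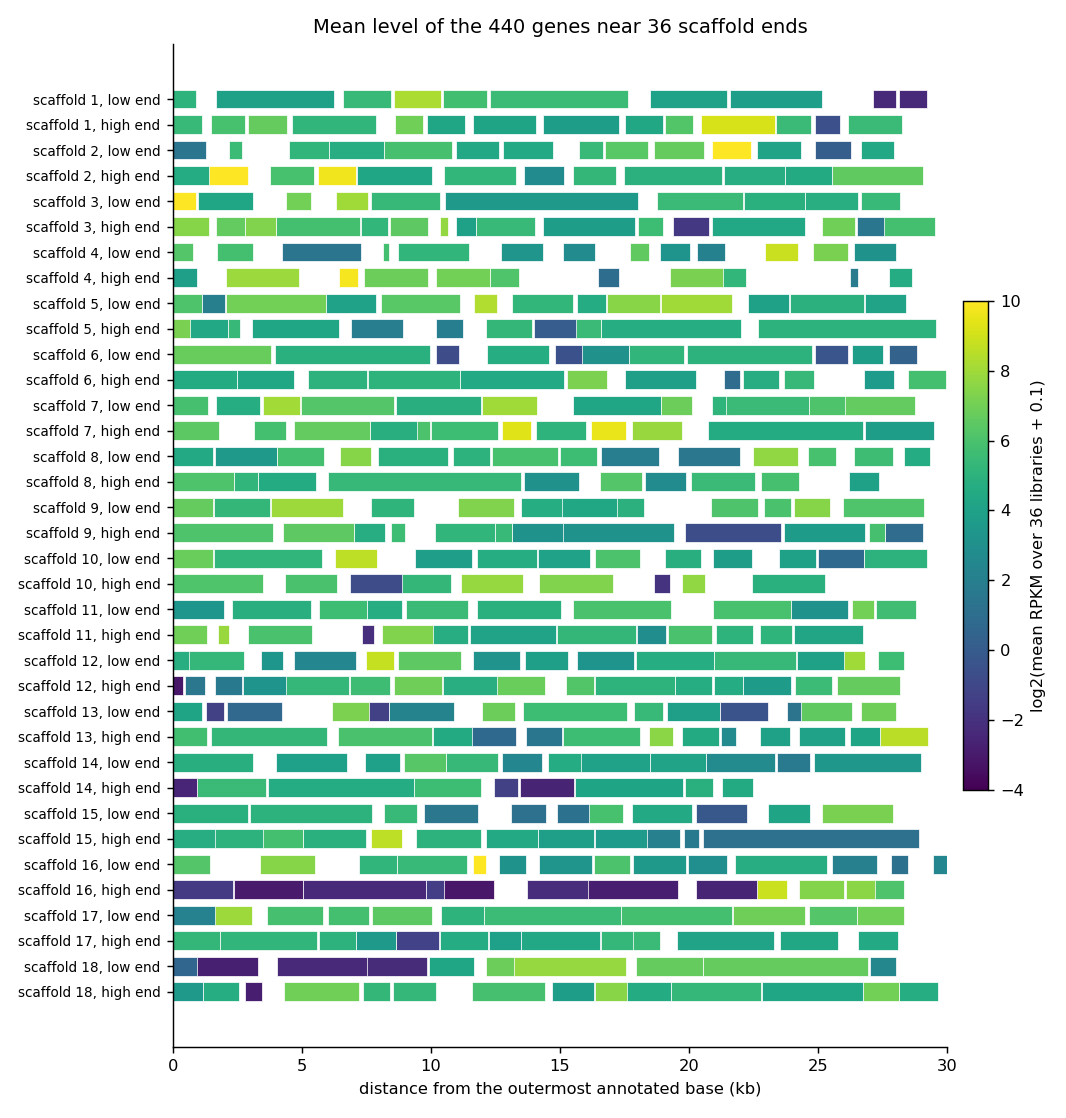
Each bar is a gene, drawn from its outer to its inner boundary in kb from the outermost annotated base (x axis) at each of the 36 scaffold ends (y axis), coloured by log2(mean RPKM over 36 libraries + 0.1). Dark bars are scattered over many ends, and the high end of scaffold 16 carries 8 of them in a row.

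Within the 30 kb, the median level fell inward, and the share of silent genes was highest outermost. The median was 38.6 RPKM for the 141 genes within 10 kb of an end, 31.1 for the 152 genes at 10 to 20 kb and 26.0 for the 147 genes at 20 to 30 kb. Farther in it was 28.8 RPKM at 30 to 60 kb, 31.7 at 60 to 100 kb and 30.1 beyond 100 kb. The share under 1 RPKM went from 9.22% within 10 kb through 7.24%, 6.80%, 6.15% and 5.93% to 4.75% beyond 100 kb. Its stepwise fall within 30 kb rested on 1 end: a block of 8 silent genes on scaffold 16, described below, supplied 3 of the 13, 4 of the 11 and 1 of the 10 silent genes of the 3 bins. Without that block the shares were 7.25%, 4.73% and 6.16%, and 6.02% over all other end genes. Transcription pointed outward in 60.3% of genes within 10 kb, 48.0% at 10 to 20 kb, 49.7% at 20 to 30 kb, 55.1% at 30 to 60 kb and 50.5% beyond 100 kb. Just outside the limit, at 30 to 35 kb, that share was 60.5%. On either side of the 30 kb limit, the 75 genes at 25 to 30 kb had a median of 25.5 RPKM and the 76 genes at 30 to 35 kb a median of 32.7.

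**Figure D2:**
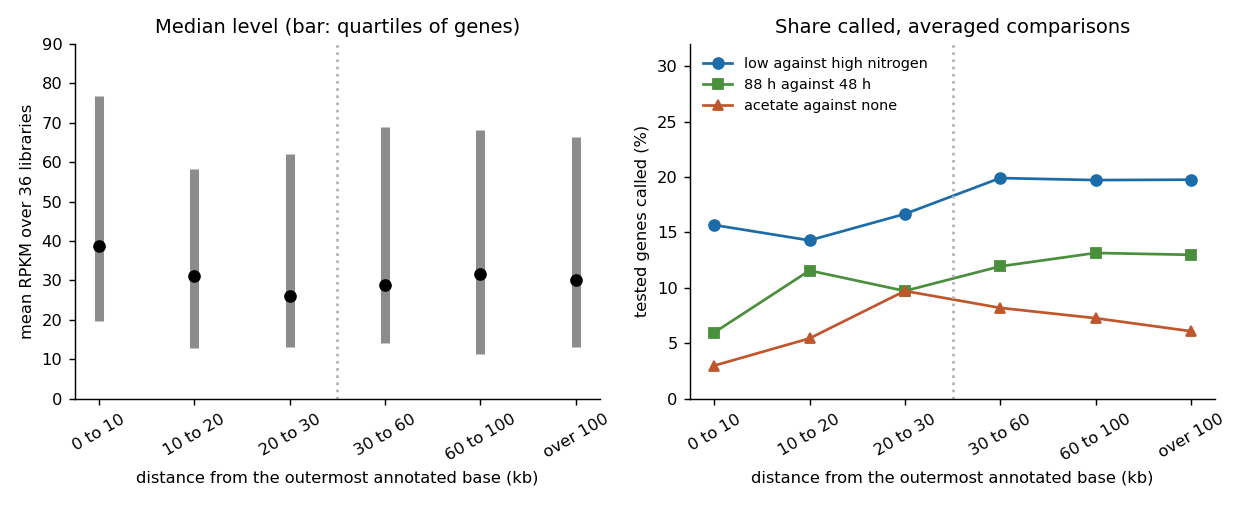
Left, the median over genes of mean RPKM (points) with quartiles (bars) in 6 bins of distance from the outermost annotated base; right, the percent of tested genes called in the 3 averaged comparisons in the same bins, with the 30 kb limit dotted. The outermost bin has the highest median, 38.6 RPKM. It also has the lowest shares called by acetate and time, 2.99% and 5.97%, which are 4 and 8 of 134 tested genes.

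The outermost gene of each end was usually expressed. Over the 36 ends its level had a median of 35.8 RPKM and ran from 0.0117 to 1016 RPKM, with 3 genes under 1 RPKM. It was transcribed toward the end at 24 of the 36 ends, and its median coding length was 793.5 bases. The most highly expressed of them was mRNA_4359 (catalogue protein 12727; scaffold 3, 1 to 902, plus strand, 1 exon), which begins at the first base of its scaffold, so that its annotation may be incomplete. The end genes with the highest levels of all were mRNA_3547 (scaffold 2, 20939 to 22488, minus strand) at 1747 RPKM and mRNA_2984 (scaffold 16, 11630 to 12169, plus strand) at 1616 RPKM. The group means of mRNA_3547 ran from 334 CPM in high nitrogen without acetate at 64 h to 1571 CPM in low nitrogen without acetate at 64 h.

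A block of 8 adjacent genes at the high end of scaffold 16 averaged under 1 RPKM each. The genes mRNA_3161 to mRNA_3168 fill 455776 to 478415, the outermost 22640 bases, and averaged over the 36 libraries none exceeded 0.266 RPKM. The highest value in a single library was 1.06 CPM, for mRNA_3165. The summed counts of the 8 genes over 36 libraries were 1325. Of these genes, mRNA_3165, mRNA_3166 and mRNA_3168 passed the filter, on 171, 291 and 311 counts. They were called, as defined below, in 6, 2 and 4 of the 16 single comparisons. Those calls rest on levels near the floor and enter the counts of end genes called. The next gene inward, mRNA_3160 (454625 to 455775, minus strand, 3 exons), adjoins the block base to base and stood at 463 RPKM. Beyond it, mRNA_3157, mRNA_3158 and mRNA_3159 stood at 69.0, 193 and 168 RPKM. This end therefore had a median of 0.172 RPKM, and the next lowest of the 36 ends had 12.5. Runs of at least 4 adjacent genes under 1 RPKM were rare: 5 occurred in the whole catalogue, holding 29 of its 431 genes under 1 RPKM. The block on scaffold 16 was the only run at an end, and an interior run on scaffold 1 was equally long, with 8 genes over 17206 bases. These runs were counted after the levels were seen. Of the 36 ends, 19 had no gene under 1 RPKM.

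The share of all counts that fell on end genes moved with nitrogen, acetate and time. It averaged 3.96% ± 0.299 (SD, n = 36) and ran from 3.34% to 4.53%. In low nitrogen without acetate the 3 libraries held 3.89%, 3.89% and 3.85% at 48 h, and 3.36%, 3.34% and 3.39% at 88 h, so the times did not overlap. In high nitrogen without acetate they held 4.07%, 4.12% and 4.13% at 48 h, and 4.09%, 4.28% and 4.12% at 88 h, which do overlap. With acetate the mean share went from 4.15% to 3.52% in low nitrogen and from 4.44% to 4.00% in high nitrogen, in both cases with no overlap of the 2 times. The share was lower in low than in high nitrogen in all 6 comparisons, by 0.229 to 0.793 percentage points, with no overlap of libraries in any. It was higher with acetate in 5 of 6 comparisons, and lower with acetate in high nitrogen at 88 h (4.00% against 4.16%). The libraries of these 6 pairs did not overlap either. In low nitrogen a large part of the rise with acetate lay in the single end gene mRNA_919, described below. Its mean went from 508 to 2784 CPM at 48 h, from 384 to 5211 CPM at 64 h and from 175 to 2125 CPM at 88 h. In high nitrogen at 64 h it went from 66.5 to 1950 CPM. The share of end genes without mRNA_919 is not given here.

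A few very abundant genes moved in the same comparisons. The 10 most abundant genes of a library at 88 h without acetate took 10.2% ± 0.427 of the counts under low nitrogen and 3.92% ± 0.0887 under high nitrogen (SD, n = 3 each). With those 10 genes removed from each library, the end-gene shares of these groups were 3.75% ± 0.0461 and 4.33% ± 0.108 (SD, n = 3 each). The nitrogen and acetate differences kept their directions without them, and the libraries did not overlap in any of the 12 pairs.

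The nitrogen comparison sets low-nitrogen medium against high-nitrogen medium. No amount of yeast extract is listed for the high-nitrogen medium, so a difference in it cannot be told apart from that in ammonium. Over the 6 low against high nitrogen differences averaged, with 18 libraries on each side, 29 of 425 tested end genes were called higher in low nitrogen (6.82%) and 37 were called lower (8.71%). Called means an adjusted p under 0.05 in edgeR's quasi-likelihood test over all 8314 tested genes and a change of at least 2-fold. Over all tested genes, 8.90% were called higher and 10.6% lower. In either direction, 15.5% of end genes and 19.8% of interior genes were called, a difference of −4.23 percentage points, which ran from −5.18 to −3.62 when each library was left out in turn. With library totals alone as the scaling it was −1.39 points. The median log2 change was −0.07 for end genes and −0.03 for all tested genes.

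For nitrogen, the lower share of calls at the ends was also seen among genes of like level, except the lowest. Between 10 and 100 RPKM, 12.2% of 270 end genes and 16.0% of 5088 interior genes were called in the averaged nitrogen comparison. At 100 RPKM and over, these shares were 14.1% of 78 and 21.9% of 1324, and between 1 and 10 RPKM they were 24.1% of 58 and 29.7% of 1235. Under 1 RPKM, 8 of 19 end genes and 36.9% of 236 interior genes were called. The end shares at the higher levels rest on 33, 11 and 14 called genes, in the order given. These differences are small in number of genes and were not tested.

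The end genes that rose most with low nitrogen were mRNA_6727 and mRNA_2053. The gene mRNA_6727 (catalogue protein 15095; scaffold 7, 3524 to 4996, minus strand, 6 exons) lies 4.94 kb from its end. Its level ran from 71.0 to 1399 CPM in the 18 low-nitrogen libraries, with a median of 240 CPM, and from 5.10 to 30.9 CPM in the 18 high-nitrogen libraries, with a median of 18.3 CPM. Every low-nitrogen library stood above every high-nitrogen library. The averaged log2 change was 4.39 ± 0.09 (SE; adjusted p = 7.46e-28, edgeR), and the gene was called in 6 of 6 single comparisons. It peaked at 64 h in low nitrogen without acetate, at 1088, 1399 and 1280 CPM, where the high-nitrogen libraries held 10.5, 6.44 and 12.0 CPM. That difference was 7.01 ± 0.24 (SE) on the log2 scale.

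The second gene, mRNA_2053 (catalogue protein 10421; scaffold 12, 842019 to 844467, plus strand, 13 exons), ran from 83.5 to 578 CPM with a median of 183 CPM in low nitrogen and from 29.3 to 85.1 CPM with a median of 39.6 CPM in high nitrogen. The 2 sets of libraries overlapped slightly, at 48 h without acetate, where the log2 difference was 0.15. The averaged log2 change was 2.29 ± 0.05 (SE; adjusted p = 3.88e-27, edgeR), and 5 of 6 single comparisons were called.

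The end genes that fell most with low nitrogen were mRNA_2981 and mRNA_6115. The first (catalogue protein 11349; scaffold 16, 3375 to 5505, plus strand, 8 exons) held 8.23 to 75.9 CPM with a median of 42.0 CPM in low nitrogen, and 95.3 to 610 CPM with a median of 338 CPM in high nitrogen. No libraries of the 2 media overlapped. It changed by −3.29 ± 0.09 (SE; adjusted p = 7.39e-25, edgeR) and was called in 6 of 6 single comparisons. In both media it was also higher with acetate at each time, so that its order over groups ran from 9.69 ± 1.67 CPM (SD, n = 3) at 88 h under low nitrogen without acetate to 578 ± 48.9 CPM (SD, n = 3) in high nitrogen with acetate at 64 h.

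The gene mRNA_6115 (catalogue protein 14483; scaffold 6, 26359 to 27586, plus strand, 4 exons) was high in high nitrogen with acetate and low elsewhere. There it held 113, 92.6 and 114 CPM at 48 h, 39.6, 29.3 and 34.2 CPM at 64 h, and 13.1, 13.3 and 11.2 CPM at 88 h, whereas the highest value in the other groups was 3.91 CPM. The log2 difference between nitrogen media with acetate was −6.15 ± 0.24 (SE) at 48 h and −4.33 ± 0.25 at 64 h. Averaged over 6 comparisons it was −2.77 ± 0.11 (SE; adjusted p = 1.12e-20, edgeR), and 4 of 6 were called.

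Nitrogen called more end genes at 64 and 88 h than at 48 h, as it did over all tested genes. Without acetate at 48 h, 22 end genes were called higher in low nitrogen (5.18%, against 6.62% of all tested genes) and 14 lower (3.29%, against 7.37%). This was the comparison in which end and interior genes stood farthest apart in share called, 8.47% against 14.3%. Without the fold limit this split turned to 123 higher and 132 lower. At 64 h, 52 were higher (12.2%, against 13.1%) and 49 lower (11.5%, against 14.2%), a near balance that turned to 154 and 157 without the fold limit and to 88 and 89 in a 50 kb window. At 88 h, 50 were higher (11.8%, against 13.8%) and 89 lower (20.9%, against 19.7%).

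With acetate, the end genes called in low against high nitrogen at 48 h were 39 higher (9.18%, against 10.3%) and 57 lower (13.4%, against 12.8%). At 64 h they were 63 higher (14.8%, against 17.4%) and 67 lower (15.8%, against 14.1%), or 118 and 99 in a 50 kb window. At 88 h they were 46 higher (10.8%, against 16.7%) and 86 lower (20.2%, against 17.5%), and the median log2 change of end genes was −0.21 against −0.06 over all tested genes. Scaling by library totals alone moved the split of higher to lower end genes toward lower in the average, to 19 and 68, and in 5 of the 6 single comparisons. Without acetate the 3 times then gave 16 higher and 22 lower, 24 and 93, and 20 and 148. With acetate the later times gave 37 higher and 103 lower, and 44 and 95. At 48 h with acetate the split moved the other way, to 47 and 51, and the median of all tested genes rose by 0.08. On the log2 scale that median was lowered by 0.24 in the average and by 0.54 at most, without acetate at 88 h.

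**Figure D3:**
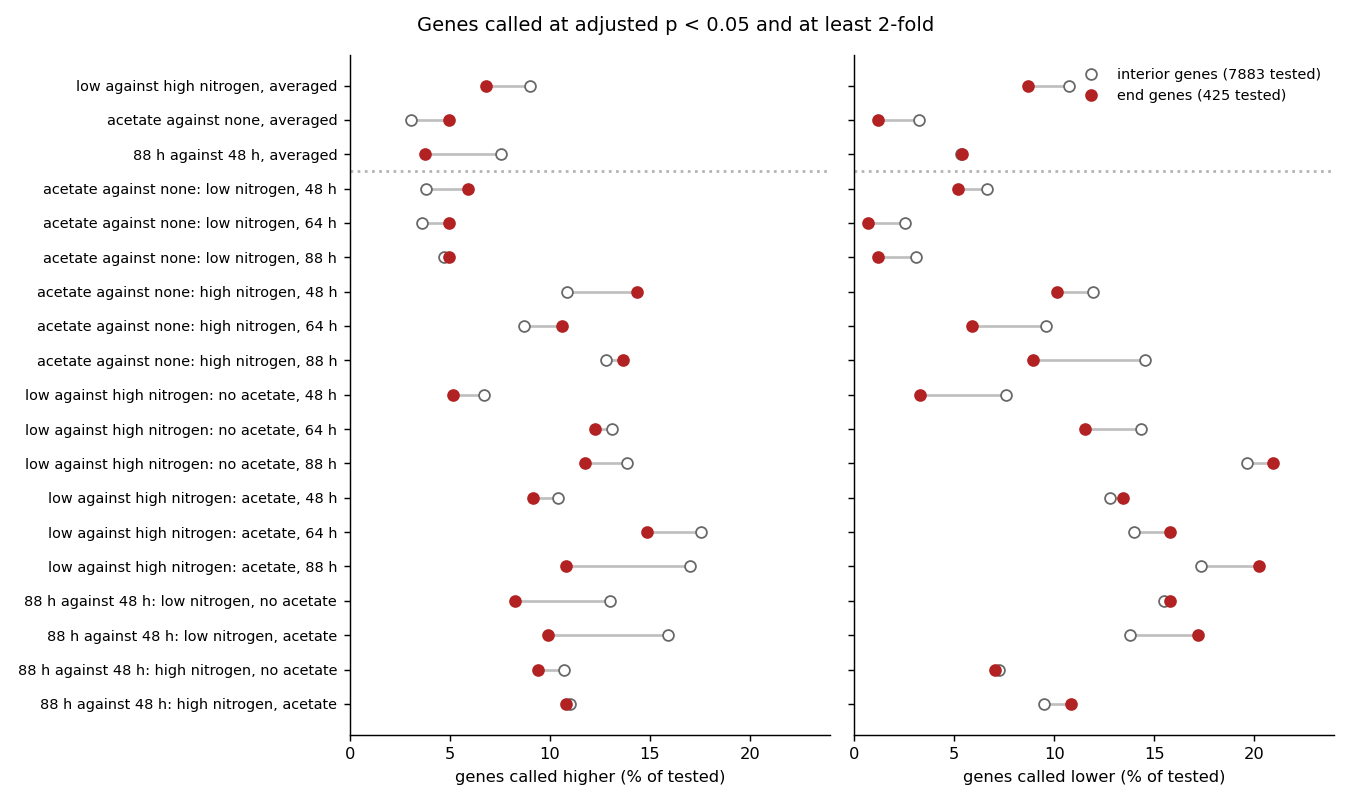
The percent of tested genes called higher (left) and lower (right), for 425 end genes (filled) and 7883 interior genes (open), in the 3 averaged comparisons above the dotted line and the 16 single ones below it. In the averaged acetate comparison 4.94% of end genes were higher and 1.18% lower, against 3.07% and 3.22% of interior genes.

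Single comparisons of nitrogen named the genes already described and 3 others. Without acetate at 48 h the largest rise was that of mRNA_3160, the gene that adjoins the silent block of scaffold 16. It held 188, 250 and 191 CPM in low nitrogen and 3.38, 16.6 and 8.94 CPM in high nitrogen, which do not overlap. The log2 difference was 4.45 ± 0.50 (SE; adjusted p = 9.61e-09, edgeR), and 5.12 without high-nitrogen replicate 2. With acetate at 88 h the largest rise was that of mRNA_919 and the largest fall that of mRNA_1697, both described below. In the other nitrogen comparisons mRNA_6727 headed the rises, and mRNA_2981 (without acetate) or mRNA_6115 (with acetate at 48 and 64 h) headed the falls.

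Acetate raised more end genes than it lowered. Averaged over its 6 comparisons, 21 end genes were called higher with acetate (4.94%, against 3.16% of all tested genes) and 5 lower (1.18%, against 3.15%). The total share called was close to that of the interior, at 6.12% against 6.29%. Among genes of any size of change with an adjusted p under 0.05, 191 end genes were higher and 131 lower, so the split was less one-sided without the 2-fold limit. It was also less one-sided within 20 kb, at 8 higher and 4 lower, and when library totals alone set the scale, at 17 and 11. The median log2 change with acetate was 0.06 for end genes and −0.0029 for all tested genes. The 10 end genes that also met the demands on level and on a shared direction were all higher with acetate, and none was lower. The same count over interior genes is not given here, so it says nothing particular to the ends.

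Among the end genes that met those demands, mRNA_919 (catalogue protein 9287; scaffold 1, 2192735 to 2195602, minus strand, 10 exons) rose most with acetate on average. It held 103 to 6333 CPM with a median of 2045 CPM in the 18 libraries with acetate, and 33.5 to 516 CPM with a median of 130 CPM in the 18 without. The 2 sets overlapped only through high nitrogen with acetate at 88 h, where the libraries held 145, 103 and 109 CPM. The averaged log2 change was 3.40 ± 0.07 (SE; adjusted p = 1.27e-26, edgeR), and 6 of 6 single comparisons were called. Its highest group was low nitrogen with acetate at 64 h, at 6333, 5094 and 4205 CPM. It was the end gene called in the most single comparisons of all kinds, 14 of 16.

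Next came mRNA_3389 (catalogue protein 11757; scaffold 17, 561833 to 564101, plus strand, 7 exons). It ran from 21.6 to 170 CPM with a median of 52.8 CPM with acetate, and from 2.99 to 11.9 CPM with a median of 5.51 CPM without. Every library with acetate lay above every library without it. The averaged log2 change was 3.23 ± 0.10 (SE; adjusted p = 2.92e-22, edgeR), with single values from 2.05 to 4.30 in 6 of 6 called comparisons.

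In low nitrogen the acetate calls at the ends were few. At 48 h, 25 end genes were higher with acetate (5.88%, against 3.92%) and 22 lower (5.18%, against 6.60%), a split that turned to 14 and 15 within 20 kb, 39 and 42 within 50 kb and 18 and 20 among genes of at least 10 CPM in 3 libraries. At 64 h, 21 were higher (4.94%, against 3.66%) and 3 lower (0.706%, against 2.50%), or 16 and 8 when scaled by totals alone. At 88 h, 21 were higher (4.94%, against 4.71%) and 5 lower (1.18%, against 3.03%). The largest fall at 48 h was that of mRNA_5134 (scaffold 3, 1837309 to 1837612, minus strand), from 189, 189 and 182 CPM without acetate to 20.2, 28.2 and 32.1 CPM with it, a log2 change of −2.80 ± 0.19 (SE; adjusted p = 1.05e-12, edgeR). At 64 h it was that of mRNA_7326 (scaffold 8, 12445 to 14992, minus strand), by −1.53 ± 0.20 (SE), and at 88 h that of mRNA_6733 (scaffold 7, 20964 to 21791, plus strand), by −1.59 ± 0.18 (SE). The exons of mRNA_6733 overlap those of its neighbour on the same strand, so its count is uncertain.

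In high nitrogen acetate called more end genes in both directions. At 48 h, 61 were higher (14.4%, against 11.0%) and 43 lower (10.1%, against 11.9%). At 64 h, 45 were higher (10.6%, against 8.78%) and 25 lower (5.88%, against 9.43%), or 34 and 36 when scaled by totals alone. At 88 h, 58 were higher (13.6%, against 12.8%) and 38 lower (8.94%, against 14.3%), or 25 and 79 with library totals alone, a scaling that lowered the median of all tested genes by 0.47. The direction of the split in high nitrogen at 64 and 88 h thus depended on the scaling.

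The largest changes with acetate in high nitrogen were at 48 h. The gene mRNA_3410 (scaffold 18, 27190 to 28187, minus strand) went from 0.161, 0.300 and 0.307 CPM to 37.9, 16.2 and 22.8 CPM. Only 22 counts stood behind the 3 libraries without acetate, and its log2 change of 6.63 ± 0.43 (SE; adjusted p = 3.88e-14, edgeR) rests on them. The outermost gene of scaffold 3, mRNA_4359, went the other way, from 1391, 1093 and 2022 CPM to 94.0, 69.4 and 96.6 CPM. These libraries do not overlap, and the log2 change was −4.12 ± 0.23 (SE; adjusted p = 2.20e-15, edgeR). At 64 h mRNA_919 rose from 67.7, 64.3 and 67.4 CPM to 1878, 1940 and 2032 CPM, by 4.87 ± 0.18 (SE) on the log2 scale.

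The largest falls at the later times in high nitrogen concerned genes that overlap a neighbour on the other strand. At 64 h mRNA_7916 (scaffold 9, 14548 to 16356, minus strand) went from 86.3, 26.9 and 77.4 CPM to 11.4, 13.5 and 14.0 CPM, by −2.31 ± 0.23 (SE; adjusted p = 1.01e-09, edgeR). The lowest of the libraries without acetate, 26.9 CPM, was replicate 2, which stood apart as a whole. At 88 h mRNA_2970 (scaffold 15, 682638 to 684158, plus strand) went from 31.1, 11.2 and 25.7 CPM to 2.63, 2.19 and 2.28 CPM, by −3.27 ± 0.24 (SE; adjusted p = 8.15e-13, edgeR). Here too replicate 2 of the libraries without acetate was the lowest and stood apart.

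**Figure D4:**
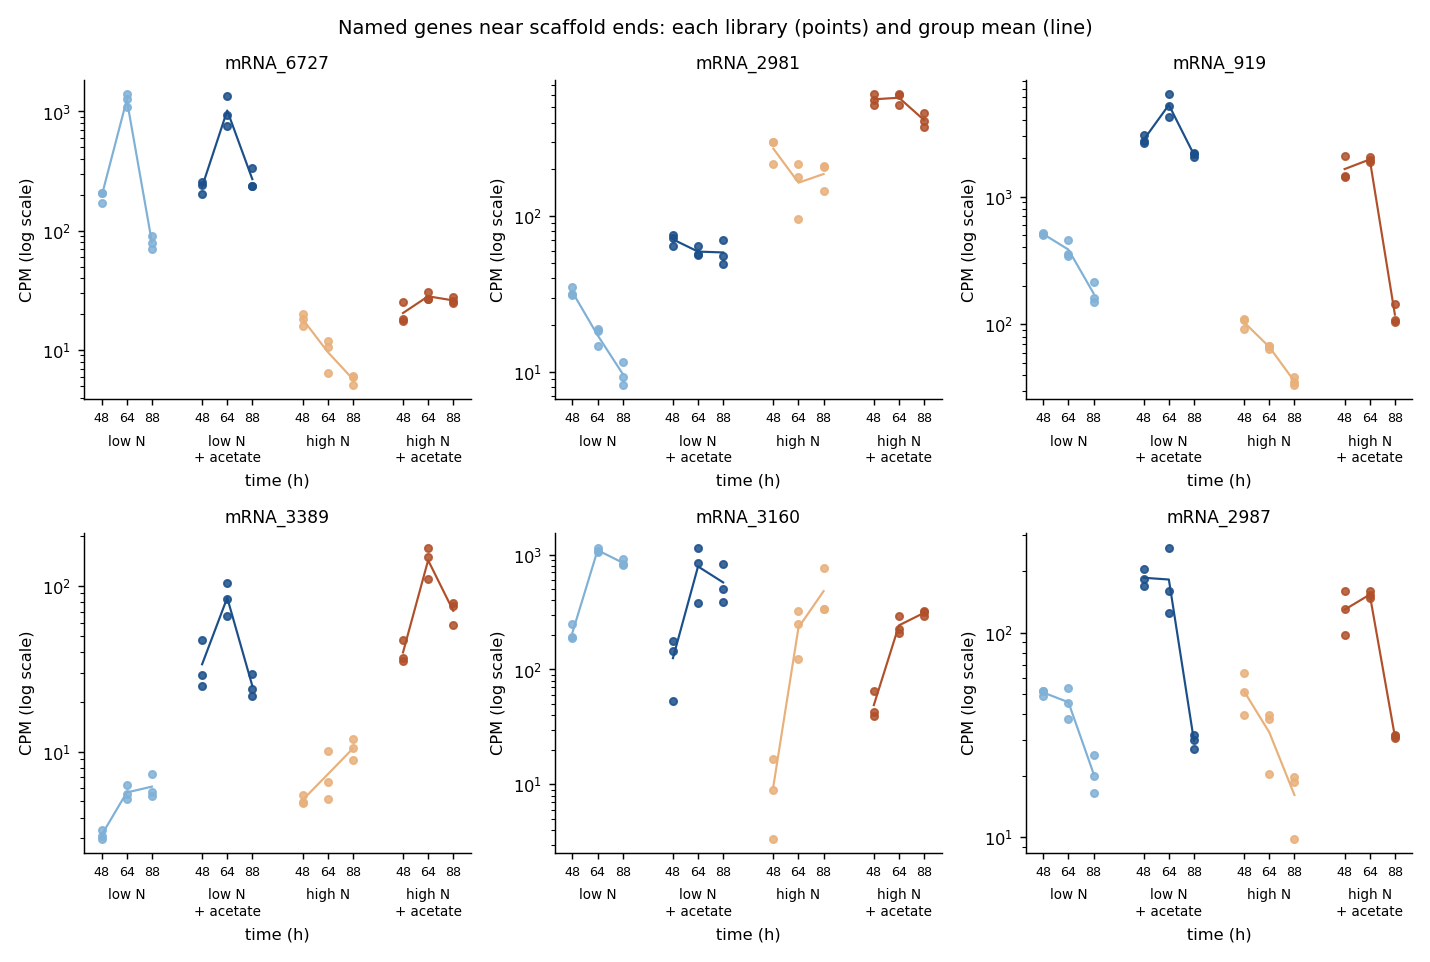
CPM on a log axis for 6 named end genes in each of 36 libraries (points) with group means (lines), by time in h within low and high nitrogen (N), with and without acetate. The gene mRNA_6727 lies higher in every low-nitrogen library, mRNA_3389 in every library with acetate, and mRNA_3160 rises from 48 to 88 h in all 4 media.

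A smaller share of end than of interior genes was called over time, and the gap lay among the rising genes. In the 4 comparisons of 88 h with 48 h averaged, with 12 libraries on each side, 16 end genes were called higher at 88 h (3.76%, against 7.41% of all tested genes) and 23 lower (5.41%, against 5.36%). In either direction 9.18% of end genes and 12.9% of interior genes were called, a difference of −3.76 percentage points, from −4.46 to −3.50 with each library left out in turn. With library totals alone the difference was −1.34 points, and the split moved to 14 higher and 38 lower. The median log2 change was −0.04 for end genes and −0.0019 for all tested genes.

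Among the end genes that met the demands on level and direction, mRNA_3160 rose most with time. It ran from 3.38 to 250 CPM with a median of 58.8 CPM at 48 h, and from 292 to 911 CPM with a median of 444 CPM at 88 h. No libraries of the 2 times overlapped, although replicates within a group spread widely, as in high nitrogen without acetate at 88 h with 336, 770 and 335 CPM. The averaged log2 change was 3.13 ± 0.23 (SE; adjusted p = 3.04e-13, edgeR), and 4 of 4 single comparisons were called. In high nitrogen without acetate the change was 5.64 ± 0.53 (SE), and 6.35 without replicate 2 at 48 h.

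The gene mRNA_1697 (scaffold 11, 919420 to 920558, plus strand) rose mainly in high nitrogen. At 88 h with acetate it held 31.2, 28.0 and 25.2 CPM in high nitrogen, against 1.80, 1.80 and 1.14 CPM in low nitrogen, which do not overlap. That nitrogen difference was −4.12 ± 0.29 (SE; adjusted p = 2.12e-13, edgeR). Over time it rose by 2.44 ± 0.16 (SE) on average, and 3 of 4 single comparisons were called.

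Falling genes were headed by mRNA_2987 and mRNA_919. The gene mRNA_2987 (scaffold 16, 16356 to 17728, plus strand) ran from 39.9 to 205 CPM with a median of 80.5 CPM at 48 h and from 9.87 to 31.8 CPM with a median of 26.1 CPM at 88 h, with no overlap. It changed by −1.92 ± 0.13 (SE; adjusted p = 1.82e-14, edgeR), and 4 of 4 single comparisons were called. In high nitrogen with acetate mRNA_919 went from 1426, 1436 and 2059 CPM at 48 h to 145, 103 and 109 CPM at 88 h, by −3.79 ± 0.17 (SE; adjusted p = 2.77e-17, edgeR). In low nitrogen with acetate, its 48 h level of 2784 ± 220 CPM and its 88 h level of 2125 ± 87.4 CPM (SD, n = 3 each) lay much closer, and that comparison was not called.

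In low nitrogen without acetate, 35 end genes were higher at 88 h than at 48 h (8.24%, against 12.8% of all tested genes) and 67 lower (15.8%, against 15.5%), or 20 and 98 with library totals alone. With acetate, 42 were higher (9.88%, against 15.6%) and 73 lower (17.2%, against 14.0%), or 32 and 97. In high nitrogen without acetate, 40 were higher (9.41%, against 10.7%) and 30 lower (7.06%, against 7.22%), or 50 and 24. That split turned to 32 and 33 without the 4 libraries that stood apart and to 109 and 158 without the fold limit, so its direction is not settled. With acetate, 46 were higher (10.8%, against 11.0%) and 46 lower (10.8%, against 9.55%). The rising end genes fell short of the background mainly in low nitrogen.

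The strongest single changes over time in low nitrogen concerned genes named for acetate as well as others. Without acetate mRNA_5134 fell from 189, 189 and 182 CPM to 12.3, 11.9 and 13.7 CPM, by 3.89 ± 0.21 (SE; adjusted p = 1.37e-15, edgeR). In the same medium mRNA_5385 (scaffold 4, 619220 to 620866, minus strand), which overlaps a gene on the other strand, rose from 6.68, 6.03 and 6.28 CPM to 38.9, 41.6 and 38.6 CPM, by 2.65 ± 0.20 (SE). With acetate the outermost gene mRNA_4359 rose from 141, 149 and 134 CPM to 1181, 1047 and 1071 CPM, by 2.96 ± 0.22 (SE). In that medium mRNA_1334 (scaffold 11, 24152 to 26373, plus strand) changed by −3.29 ± 0.21 (SE). In high nitrogen without acetate mRNA_7915 (scaffold 9, 12129 to 14300, plus strand) went from 645, 649 and 721 CPM to 141, 88.1 and 133 CPM, by −2.48 ± 0.19 (SE).

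End genes as a whole varied about as much as interior genes. On the log2(CPM + 1) scale the median range of group means was 1.60 for end genes and 1.64 for interior genes, and the median replicate SD was 0.0957 and 0.0999. Of the 425 tested end genes, 110 (25.9%) were called in none of the 16 single comparisons, as were 24.7% of interior genes. At the other extreme, 45 end genes (10.6%) and 13.2% of interior genes were called in at least 8. The share called in at least 8 was 5.22% within 10 kb of an end, 11.6% at 10 to 20 kb and 14.6% at 20 to 30 kb. The low share thus lay in the outermost bin, which also had the lowest shares called by acetate (2.99%) and by time (5.97%) in the averaged comparisons. These 3 shares rest on 7, 4 and 8 of 134 tested genes, in that order, and the differences between bins were not tested. For nitrogen the share called was 15.7%, 14.3% and 16.7% in the 3 bins within 30 kb, counted from the end inward, and 19.9%, 19.7% and 19.8% in the 3 bins beyond them.

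Nitrogen calls were spread over most ends, and acetate and time calls over fewer. Interior stretches of like gene number were not counted for comparison. In the averaged nitrogen comparison 32 of the 36 ends held a called gene and no end held more than 4, a number reached at the low ends of scaffolds 11 and 13 and at the high end of scaffold 18. At 11 ends the calls went in both directions. In the averaged acetate comparison 19 ends held none, and the most, 3, stood at the low ends of scaffolds 6 and 16 and the high end of scaffold 17, where they were all higher with acetate. For time, 13 ends held none and the low end of scaffold 13 held the most, 2 higher and 2 lower. No run of at least 4 adjacent end genes called in the same direction occurred in an averaged comparison.

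Single comparisons held 9 such runs, each lying wholly among the genes of 1 end. For the shares that follow, runs were counted along whole scaffolds and could cross the 30 kb limit. The share of end genes in runs was lower than that of interior genes in 11 of 16 comparisons, and the median over comparisons was 0% for end genes and 0.869% for interior genes. The largest share at the ends was 3.76%, in low against high nitrogen with acetate at 88 h, beside 2.80% of interior genes. There, 5 neighbours at the high end of scaffold 17, mRNA_3389 to mRNA_3393 (561833 to 574113), were all lower in low nitrogen, by log2 changes from −1.71 to −1.38. They lie on both strands, and 2 of the 5 overlap each other's exons on the same strand. Without acetate, the last 4 of them were also lower in low nitrogen at 88 h, from −1.94 to −1.32.

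The run with the most even changes lay at the low end of scaffold 7. The 4 genes mRNA_6733 to mRNA_6736 (20964 to 28808) are all on the plus strand, and each shares exon bases with a neighbour on that strand, so their counts may share reads. In high nitrogen at 48 h mRNA_6736 held 246, 189 and 188 CPM without acetate and 55.9, 37.2 and 37.6 CPM with it. Libraries with acetate lay below all those without. The 4 log2 changes ran from −2.25 to −2.17. From 48 to 88 h in high nitrogen with acetate all 4 rose again, by 2.29 to 2.43, and mRNA_6736 reached 251, 205 and 209 CPM. In low nitrogen without acetate all 4 group means were also higher at 88 h, with mRNA_6733 going from 13.1 ± 0.480 to 29.8 ± 2.89 CPM and mRNA_6736 from 299.5 ± 7.11 to 570.2 ± 11.4 CPM (SD, n = 3 each). In low nitrogen with acetate they parted: mRNA_6733 held 9.18 ± 0.722 CPM at 48 h and 9.85 ± 0.649 CPM at 88 h (SD, n = 3 each), while mRNA_6736 went from 105 ± 10.2 to 420.0 ± 26.3 CPM.

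**Figure D5:**
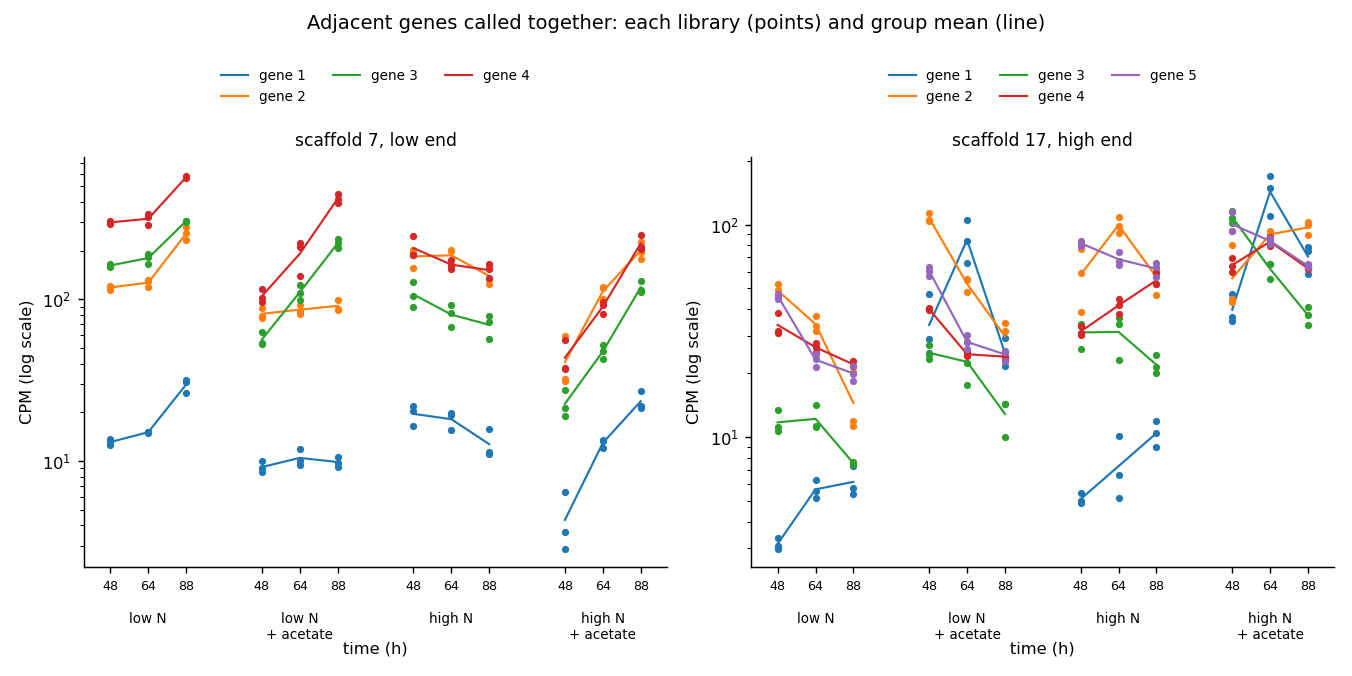
CPM on a log axis for the 4 genes of the run at the low end of scaffold 7 (left) and the 5 genes of the run at the high end of scaffold 17 (right), numbered by position, in each library (points) and as group means (lines), by time in h and medium. On the left all 4 genes are lowest in high nitrogen with acetate at 48 h; on the right all 5 are lower in low than in high nitrogen with acetate at 88 h.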

How the data were processed

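RNA was measured with a stranded mRNA kit, per the labels' protocols. Per the submitters' processing notes the tools include Trimmomatic 0.39, FastQC 0.11.9, MultiQC 1.9, STAR 2.7.10a and featureCounts of Subread 2.0.4; settings for strand and shared reads are not given in the sources used here. The authors deposited a read count per gene, with IDs of the frozen gene catalogue of assembly Rhoto_IFO0880_4. The labels describe the values as scaled, but they are whole numbers with differing totals, and were used as counts. The catalogue supplied positions and exon lengths, 1-based; all IDs matched.

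Counts were fitted in edgeR 4.0.16 over all 36 libraries with filterByExpr, TMM factors, 1 mean per group and the quasi-likelihood test with Benjamini-Hochberg adjustment over 8314 genes. Calls need an adjusted p under 0.05 and a 2-fold change. RPKM is TMM-scaled CPM per kb of exon. SE is the log2 change over the root of F. P-values and SEs rest on the spread between libraries within groups and treat all 36 libraries as independent. Libraries that share a colony or a flask would not be, and the main fit makes no allowance for that. The steps were tested on simulated data. The members, lists and comparisons were chosen with earlier results of these data known.

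Named genes are called end genes whose higher group averages 10 CPM or more and whose libraries do not overlap (in averages, 1 direction in every difference averaged): the 2 highest and 2 lowest log2 changes in each average and the highest and lowest in each single comparison, plus the 2 highest levels. Single comparisons share libraries with the averages and with each other. Alternatives were DESeq2 1.42.0, RLE factors, library totals alone, no filter, at least 10 CPM in 3 libraries, a replicate block, fits of 2 groups, each library left out, windows of 20 and 50 kb and no fold limit, with the 4 libraries that stood apart left out as an alternative chosen after seeing the data. In none of 16 comparisons did all 3 correlations of same-numbered deviations exceed 0.1 (range −0.40 to 0.26), so numbers were not used to pair libraries; whether they mark a colony is not given. No sequence is shown.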

Additional observations from a re-analysis of the deposited data

Results flagged for a closer look

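The response of 12 named end genes to acetate differed between low and high nitrogen in at least 1 time point, in an interaction test in edgeR over all tested genes (14 of 22 tests past an adjusted p of 0.05). Each value is the log2 change with acetate in low nitrogen minus that in high nitrogen. At 48 h it was −5.35 for mRNA_6115, −4.09 for mRNA_3410, −3.09 for mRNA_3160 and 1.46 for mRNA_4359. For mRNA_3160 acetate changed the level by −0.74 in low and 2.35 in high nitrogen. At 64 h it was −3.89 for mRNA_6115, −2.70 for mRNA_7326, −1.84 for mRNA_6727, −1.11 for mRNA_919 and 2.20 for mRNA_7916. For mRNA_7326 the changes were −1.53 in low and 1.17 in high nitrogen. At 88 h it was −2.46 for mRNA_6733, −1.51 for mRNA_1697, 1.45 for mRNA_2981, 1.87 for mRNA_919 and 3.57 for mRNA_2970. The gene mRNA_919 thus responded more in high nitrogen at 64 h and more in low nitrogen at 88 h. For mRNA_2970, which overlaps a gene on the other strand, acetate changed the level by 0.29 in low and −3.27 in high nitrogen. The genes were named for large changes in comparisons that enter these interactions. Neither the sizes nor the count of tests past the threshold is therefore independent of that choice. The share of all tested genes past the same threshold is not given here, so the count is not a result about end genes.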

How the results depend on the processing

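The counts of end genes called depend first on the window and on the fold limit, which set how many genes can be counted. With a 20 kb window they were 42, 12 and 25 in the averages of nitrogen, acetate and time, then 29, 13, 10, 59, 40 and 54 for acetate (low nitrogen at 48, 64 and 88 h, then high nitrogen) and 58, 72, 44 and 54 for time (low nitrogen without and with acetate, then high nitrogen); for nitrogen they were 59 and 88 without acetate at 64 and 88 h and 62 with acetate at 48 h, the other 3 staying within 1.5 times. With a 50 kb window they were 115, 45 and 67, then 81, 46, 56, 166, 124 and 184 for acetate, 79, 177, 232, 153, 217 and 218 for nitrogen and 173, 196, 115 and 144 for time. Without the fold limit, at 30 kb, they were 371, 322 and 344, then 205, 176, 186, 290, 293 and 324 for acetate, 255, 311, 337, 304, 326 and 340 for nitrogen and 305, 303, 267 and 286 for time. The difference in median level between end and interior genes was 0.24 on the log2 scale with the 20 kb window, against 0.06.

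No other setting moved a count of end genes called by over 1.5 times: DESeq2, RLE factors, library totals alone, no filter on low counts, at least 10 CPM in 3 libraries, a fit of only the 2 groups, or the 4 libraries that stood apart left out, which gave 30 higher and 40 lower, 22 and 4, and 18 and 20 in the averages of nitrogen, acetate and time. In single comparisons without those 4 the splits were 21 and 3 for acetate in low nitrogen at 64 h and 62 and 46, 48 and 22, and 57 and 25 in high nitrogen at 48, 64 and 88 h; for nitrogen 52 and 50, and 53 and 88 without acetate at 64 and 88 h and 45 and 56 with acetate at 48 h; and for time in high nitrogen 32 and 33 without and 54 and 46 with acetate. Leaving out each library in turn gave 63 to 69, 25 to 28 and 35 to 40 in these averages. The difference in share called between end and interior genes for acetate, −0.17 percentage points, ran from −0.64 to 0.25 and has no settled sign. With the replicate number as a block the averages gave 66, 26 and 39 calls, and no single count moved by more than 1. In 816 of 816 refits of 42 named values the direction and the call were kept. The values were chosen as the largest changes in these same data, so this result was largely set by that choice. Refits in which a gene had no adjusted p were not counted. Whether a replicate number marks a shared colony is not given in the labels. The correlations of same-numbered deviations did not reach the bar set for pairing, as 8 of 48 exceeded 0.1 and in no comparison all 3 did, so the numbers were not used to pair libraries. With 3 libraries a group, changes near 2-fold and genes under about 10 CPM are the least certain, and reads shared by overlapping genes cannot be told apart.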
